A study of Homo sapiens with 2 samples.

Results

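The desmosome genes examined here were 10 genes chosen by name from the 58735 in both count tables: the desmosomal cadherins DSG2, DSG3, DSC2 and DSC3, the plakophilins PKP1, PKP2, PKP3 and PKP4, desmoplakin (DSP) and PERP. Their Ensembl identifiers were matched through GENCODE release 44, and each of the 10 was found once in each table. RNA came from MCF10a-Snail-ER cells, a derivative of the non-tumorigenic human mammary epithelial line MCF10a that stably carries the epithelial repressor Snail fused to the estrogen receptor. Both libraries were made from polyadenylated RNA of cells given 100 nM tamoxifen for 1 day, which activates the fusion protein and starts an epithelial-to-mesenchymal transition. One library was read strand by strand as native RNA on an Oxford Nanopore MinION, and the other was a fragmented, amplified TruSeq stranded mRNA library read by Illumina. There was 1 library per platform, no untreated library and no library of parental cells, so no value has a replicate and no effect of Snail can be measured. All intervals and tests cover counting error in these 2 libraries only.

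Desmosomes are spot-like junctions that tie the keratin filaments of neighbouring epithelial cells together. Desmogleins and desmocollins are the cadherins that bind across the gap between cells. Their tails hold plakoglobin and plakophilins, and desmoplakin links these to keratin. In stratified and basal epithelia the junctions resist mechanical stress, and their loss is a textbook feature of the epithelial-to-mesenchymal transition.

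The totals were 403235 Nanopore and 191741714 Illumina counts, so a single count was worth 2.48 and 0.00522 counts per 1000000 (CPM). A count of 0 allowed a level of up to 3 counts, which is 7.44 CPM for Nanopore and 0.0156 CPM for Illumina. The labelled cell type was checked against marker genes. All 8 markers of basal mammary epithelium had counts in both libraries, with sums of 3365 CPM (Nanopore) and 3654 CPM (Illumina), led by the keratin KRT5. Of 7 luminal markers, 6 had counts in each library, with sums of 1654 CPM (Nanopore) and 692 CPM (Illumina), and ELF5 was at 0 in both. ESR1 held 389 of the 667 Nanopore counts of that list, and its counts can include the estrogen receptor part of the fusion. All 3 general epithelial markers had counts, but KRT7 held 518 of their 524 Nanopore counts, and CDH1 and EPCAM had 3 each. Of 7 mesenchymal markers, 5 (Nanopore) or 7 (Illumina) had counts, with sums of 1838 CPM (Nanopore) and 2148 CPM (Illumina). Vimentin led them, at 1736 CPM (Nanopore) and 1828 CPM (Illumina). Of the immune markers PTPRC, CD3E and CD14, the Nanopore library held counts of CD14 alone (5 counts), and by Illumina CD14 was at 10.95 CPM, PTPRC was under 1 CPM and CD3E was at 0. The 3 endothelial markers had 0 Nanopore counts, and by Illumina PECAM1 was at 5.08 CPM and CDH5 and VWF were under 1 CPM.

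Snail binds the E-box letters CAGGTG, or CACCTG on the other strand, and these were looked for in RefSeq promoter windows (GRCh38.p14, 250 bases before to 50 after a gene's start). They are shown because Snail is the factor activated in these cells. Windows were found for 8 of the 10 genes, 10 windows in all. PKP2 and PKP3 were not matched. The letters were present in 3 windows, those of DSP, DSG2 and DSC2, against 20.6% of all 35116 windows of 300 bases, and each of the 5 matches lay upstream of the RefSeq start. The GENCODE gene model of DSP starts farther upstream, at 7541338, so both DSP matches lie inside that model. Capitals mark the E-box, and each line reads 5′ to 3′ on the strand of the gene:
DSP, 178 bases upstream, chr6:7541481-7541510, plus strand: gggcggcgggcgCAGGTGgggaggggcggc
DSP, 85 bases upstream, chr6:7541574-7541603, plus strand: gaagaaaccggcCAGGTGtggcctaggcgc
DSG2, 232 bases upstream, chr18:31497933-31497962, plus strand: acgtcacggtccCAGGTGcgagtgcgagcg
DSG2, 116 bases upstream, chr18:31498049-31498078, plus strand: tcgcggcggccaCACCTGgagccgcgcctt
DSC2, 156 bases upstream, chr18:31102560-31102589, minus strand: tcaactttctgtCAGGTGggcctcaggcag
A match of letters is not a bound site, and with tamoxifen-treated cells alone these data hold no measure of what Snail did at these promoters. DSP and DSG2 were among the 3 most abundant of the 10 genes by Nanopore, and DSC2 was among the 2 least abundant. By Illumina counts divided by transcript length, DSP ranked 4, DSG2 ranked 3 or 2 depending on the length used, and DSC2 ranked 9. Whether the letters and the levels are related was not tested.

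The first question was which desmosome genes the cells expressed. At least 1 Nanopore count was present for 9 of the 10 genes and at least 10 counts for 8. By Illumina all 10 had counts, but PKP1 had 3. The libraries thus held RNA of both cadherin types, of 3 of the 4 plakophilins, of desmoplakin and of PERP. Together the 10 genes held 325 Nanopore counts (806 CPM, exact 95% Poisson interval 721 to 899) and 169780 Illumina counts (885.5 CPM, 881 to 890).

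The 7 desmosomal cadherin genes form a cluster of 560 kb on chromosome 18 (30989365 to 31549008, hg38), in the order DSC3, DSC2, DSC1, DSG1, DSG4, DSG3, DSG2. No other protein-coding gene lies within it. The 2 genes at each end had counts in both libraries, and the 3 in the middle had at most 7 counts by Illumina. DSC1, DSG1 and DSG4 had 0 Nanopore counts each. By Illumina DSC1 had 7 counts (0.0365 CPM), and DSG1 and DSG4 had 0, which allows up to 0.0156 CPM by the 3-count limit. DSG1 and DSC1 are the cadherins of the upper, differentiated layers of the epidermis, and DSG4 is best known from hair.

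DSG2 (ENSG00000046604, 31498177 to 31549008, plus strand) is the desmoglein found in nearly all epithelia. It had 47 Nanopore counts, 117 CPM (exact Poisson interval 85.6 to 155), and 34412 Illumina counts, 179.5 CPM (177.6 to 181.4). Its Nanopore/Illumina ratio of CPM was 0.65-fold (exact 95% interval 0.477 to 0.864), with an exact binomial adjusted p = 0.00564. Here and below that test compares a gene's 2 counts given the library totals, with Benjamini-Hochberg adjustment over all 12414 genes that averaged 5 CPM or more.

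DSG3 (ENSG00000134757, 31447741 to 31478702, plus strand) is the desmoglein of basal keratinocytes and a target of pemphigus autoantibodies. It had 28 Nanopore counts, 69.4 CPM (46.1 to 100.4), and 6687 Illumina counts, 34.9 CPM (34.04 to 35.72). In contrast to DSG2, it was 1.99-fold (1.32 to 2.88) higher by Nanopore, with an exact binomial adjusted p = 0.00415.

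DSC3 (ENSG00000134762, 30989365 to 31042815, minus strand), the desmocollin of basal layers, had 18 Nanopore counts, 44.6 CPM (26.5 to 70.6), and 13272 Illumina counts, 69.2 CPM (68.05 to 70.41). The ratio was 0.645-fold, with an interval of 0.382 to 1.02 that includes 1, and the exact binomial adjusted p was 0.115. DSC2 (ENSG00000134755, 31058840 to 31102522, minus strand), the widely expressed desmocollin, was the rarest of the cadherins chosen here. It had 2 Nanopore counts, 4.96 CPM (0.601 to 17.9), and 2827 Illumina counts, 14.7 CPM (14.2 to 15.3). Its ratio of 0.336-fold had an interval of 0.0407 to 1.22, and 2 counts could not show a difference of this size.

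Plakophilins are armadillo-repeat proteins that bind cadherin tails and desmoplakin side by side. PKP3 (ENSG00000184363, chromosome 11, 392614 to 404908, plus strand), which occurs in desmosomes of most epithelia, was the most abundant. It had 37 Nanopore counts, 91.8 CPM (64.6 to 126.5), and 21267 Illumina counts, 110.9 CPM (109.4 to 112.4). The interval of its ratio, 0.582 to 1.14, includes 1, and the exact binomial adjusted p was 0.394.

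PKP2 (ENSG00000057294, chromosome 12, 32790745 to 32896798, minus strand), also the plakophilin of heart muscle, had 21 Nanopore counts, 52.1 CPM (32.2 to 79.6), and 3984 Illumina counts, 20.8 CPM (20.14 to 21.43). It was 2.51-fold (1.55 to 3.84) higher by Nanopore, the largest CPM ratio of the 9 genes tested, with an exact binomial adjusted p = 0.00122. PKP4 (ENSG00000144283, chromosome 2, 158456952 to 158682879, plus strand), known from adherens junctions as well, went the other way. It had 11 Nanopore counts, 27.3 CPM (13.6 to 48.8), and 12607 Illumina counts, 65.7 CPM (64.6 to 66.9), a ratio of 0.415-fold (0.207 to 0.743) with an exact binomial adjusted p = 0.00356.

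PKP1 (ENSG00000081277, chromosome 1, 201283452 to 201332993, plus strand), the plakophilin of suprabasal epidermis, had 0 Nanopore and 3 Illumina counts. Its Illumina level was 0.0156 CPM (0.00323 to 0.0457). No ratio is given, because it had 0 Nanopore counts and averaged under 5 CPM.

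DSP (ENSG00000096696, chromosome 6, 7541338 to 7586714, plus strand) encodes the obligate linker to keratin. It had 53 Nanopore counts, 131 CPM (98.5 to 171.9), and 35664 Illumina counts, 186 CPM (184.1 to 187.9). The ratio was 0.707-fold (0.529 to 0.925), with an exact binomial adjusted p = 0.0225 that became 0.0738 under TMM scaling. With the Illumina counts divided by length, DSP was instead higher by Nanopore (log2 ratios of 1.25 to 2.09 for 3 choices of length). PERP (ENSG00000112378, chromosome 6, 138088505 to 138107419, minus strand), a tetraspan membrane protein of desmosomes that is a target of p53 and p63, had the highest CPM of the 10 in both libraries. Its 108 Nanopore counts gave 268 CPM (219.7 to 323.4) against 39057 Illumina counts and 203.7 CPM (201.7 to 205.7), a ratio of 1.31-fold (1.08 to 1.59) with an exact binomial adjusted p = 0.0179.

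**Figure D1:**
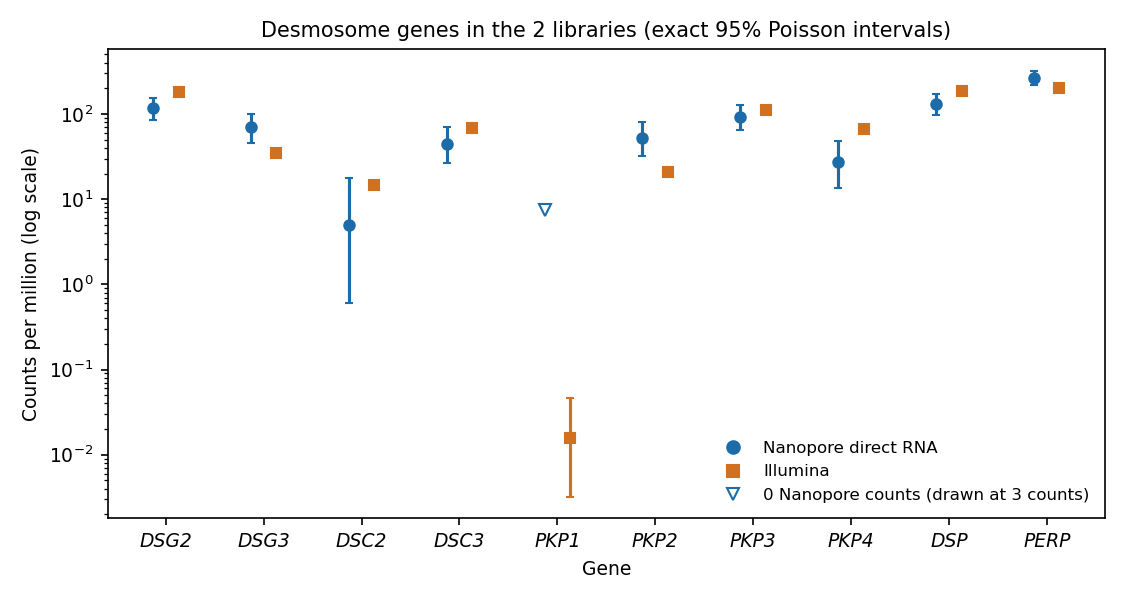
Level of each desmosome gene in CPM (log axis) in the Nanopore library (circles) and the Illumina library (squares), with exact 95% Poisson intervals; most Illumina intervals are narrower than their marker. DSG3, PKP2 and PERP lie higher by Nanopore, and PKP1, with 0 Nanopore counts drawn at the 3-count limit of 7.44 CPM, lies far below the others by Illumina.

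A Nanopore count stands for a strand, whereas an Illumina count stands for a fragment, so levels of different genes were compared within Nanopore as CPM and within Illumina per length, as length-scaled abundance (TPM). Lengths were those of the canonical (MANE Select) transcript. The Nanopore order was PERP, DSP, DSG2, PKP3, DSG3, PKP2, DSC3, PKP4, DSC2, PKP1. Of the 9 pairs of neighbours in it, the exact intervals overlapped in 8, and only PERP and DSP were apart. The Illumina order was PERP at 76.4 TPM, PKP3 at 62.0, DSG2 at 49.6, DSP at 30.2, PKP4 at 22.5, DSC3 at 14.4, DSG3 at 9.85, PKP2 at 7.74, DSC2 at 1.88 and PKP1 at 0.00463. PERP led and DSC2 and PKP1 came last in both. DSG3 and PKP2 stood above DSC3 and PKP4 by Nanopore, with overlapping intervals, and below both by Illumina. With mean transcript length in place of canonical length, PKP3 led the Illumina order at 153.7 TPM.

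The genes were then read as a group beside all genes. Of the 10 genes, 9 averaged 5 CPM or more, and PKP1 did not. By the exact test 3 of the 9 were higher by Nanopore (PKP2, DSG3, PERP), where 20.2% of all tested genes were, and 3 were higher by Illumina (DSP, DSG2, PKP4), where 27.2% were. On the scale of log2(CPM + 1), 1 gene (PKP2) was at least 2-fold higher by Nanopore, against 19.2% of all tested genes. On the same scale 2 genes (PKP4, DSC2) were at least 2-fold higher by Illumina, against 30.2%. The 9 ratios ran from −1.40 (DSC2) to 1.29 (PKP2) with a median of −0.50, and the median over all tested genes was −0.42.

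The platform ratio falls with transcript length over all genes, and desmosome mRNAs are long. Tested genes were put in 5 groups of equal size by canonical length. The longest group, 5428 to 109224 bases, holds DSG2 (5697 bases), DSG3 (5579), DSC3 (7583), DSP (9697) and DSC2 (12331), and its median log2 ratio was −0.99. The next group, 3612 to 5428 bases, holds PKP2 (4229), PKP4 (4603) and PERP (4198), with a median of −0.79. PKP3 (2817 bases) falls in the middle group, whose median was −0.56. Of the 9 genes, 7 had a ratio above the median of their group. DSG3, at 0.97, was above 95.3% of its group, PKP2 above 93.5% and PERP above 87.0%. DSP and DSG2, called higher by Illumina on the CPM scale, were above 69.4% and 63.9% of theirs. PKP4 and DSC2 were below the median, above 32.4% and 33.2%.

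**Figure D2:**
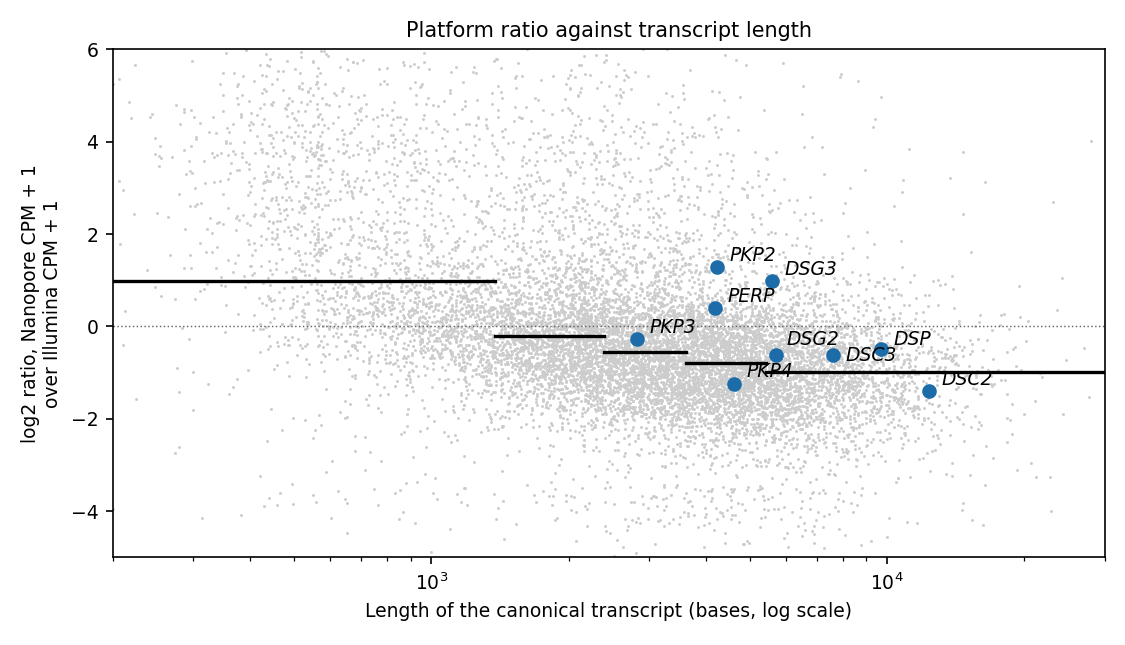
The log2 ratio of Nanopore CPM + 1 over Illumina CPM + 1 against canonical transcript length (log axis) for the tested genes with an annotated length (grey) and the 9 desmosome genes tested (blue). Black lines are the medians of the 5 length groups, and 290 of 12350 genes lie outside the axes; DSG3, PKP2 and PERP are above 0, where the 2 longest groups have medians of −0.99 and −0.79.

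Division of the Illumina counts by length turned the direction of several genes. With canonical-transcript TPM, 8 of the genes reached a mean of 5 (DSC2 and PKP1 did not), and 6 of the 8 were higher by Nanopore by the exact test, where 33.7% of all tested genes were. DSP went from −0.50 to 2.09 and DSG2 from −0.62 to 1.21 on the log2 scale. DSC3 went from −0.62 to 1.57, and the ratio of PERP rose from 0.39 to 1.80. The ratios of PKP3 and PKP4 were 0.56 and 0.27 on that scale, and neither passed the test. Over all tested genes the median was 0.50 with this division, and over the 8 genes it was 1.68. Both comparisons are with genes of all lengths, and the division lowers the Illumina value of a long transcript more than that of a short one. Of the 8 genes, DSP, DSG2, DSG3 and DSC3 are in the longest length group and PKP2, PKP4 and PERP in the next. Whether the 8 genes differ from genes of similar length after this division was not tested. DSG3, PKP2 and PERP were higher by Nanopore whichever length was used, while PKP3 and PKP4 were above 0 with canonical and union lengths and below 0 with mean transcript length.

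**Figure D3:**
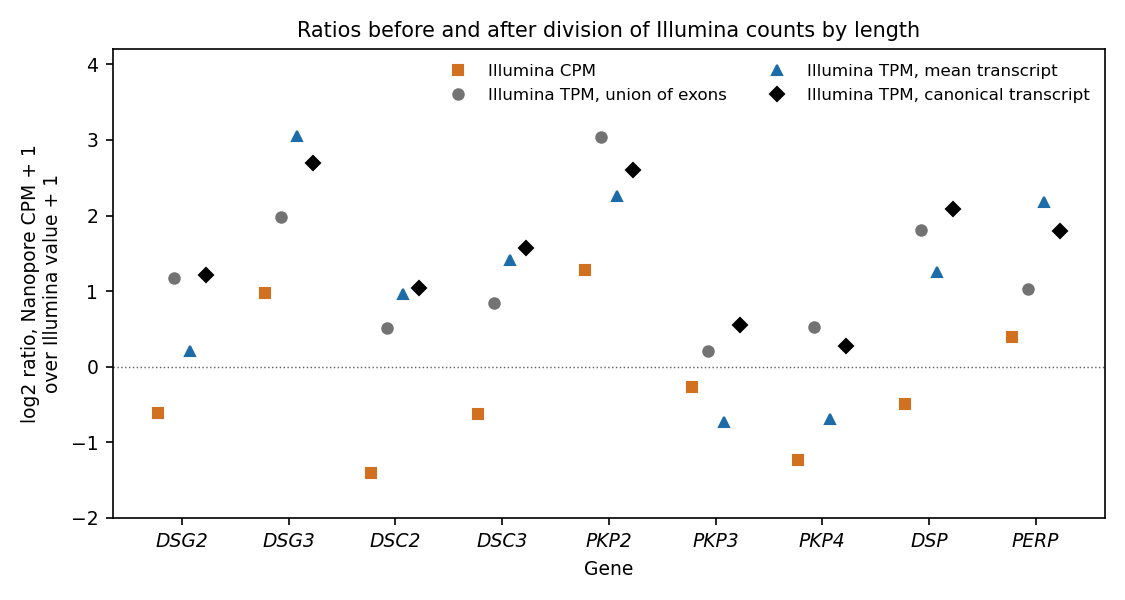
Log2 ratios of the 9 desmosome genes tested, with Illumina values as CPM (squares) or as TPM by union exonic length (circles), mean transcript length (triangles) or canonical transcript length (diamonds). Every marker of DSG3, PKP2 and PERP is above 0, and DSP, DSG2, DSC2 and DSC3 are below 0 as CPM and above 0 under each division.

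Shares within a family do not depend on how the libraries are scaled. Of the 95 Nanopore counts of the 4 cadherins, DSG2 held 49.5% (exact 95% binomial interval 39.05 to 59.93%), DSG3 29.5% (20.6 to 39.7%), DSC3 18.9% (11.6 to 28.3%) and DSC2 2.1% (0.256 to 7.4%). Of the 57198 Illumina counts, DSG2 held 60.2%, DSC3 23.2%, DSG3 11.7% and DSC2 4.94%. Per base of canonical transcript these Illumina shares became 65.5%, 19.0%, 13% and 2.49%. The DSG3 share was thus higher by Nanopore, and no Illumina value reached the lower bound of its interval: the other lengths gave 17.7% (union of exons) and 5.93% (mean transcript).

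Within the desmocollins alone the Illumina share lay inside the Nanopore interval. DSC3 held 18 of 20 Nanopore counts, 90% (68.3 to 98.8%), and 88.4% of the Illumina signal per base of canonical transcript. Desmoglein counts outnumbered desmocollin counts 3.75 to 1 by Nanopore (75 to 20 counts, interval of the ratio 2.27 to 6.49), and per base by Illumina 3.66 to 1. With the other lengths the Illumina ratio was 2.47 (union of exons) and 5.96 (mean transcript), within the Nanopore interval.

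Of the 69 Nanopore counts of plakophilins, PKP3 held 53.6% (41.2 to 65.7%), PKP2 30.4% (19.9 to 42.7%) and PKP4 15.9% (8.24 to 26.7%). Of the 37861 Illumina counts, PKP3 held 56.2%, PKP4 33.3% and PKP2 10.5%, and per base of canonical transcript 67.2%, 24.4% and 8.39%. The PKP2 share by Nanopore was above every Illumina value, which was 5.30% with the union of exons and 4.86% with mean transcript length. PKP3 was the leading plakophilin by each measure. PKP2 stood above PKP4 by Nanopore, with 21 and 11 counts and overlapping intervals, and below PKP4 by Illumina.

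**Figure D4:**
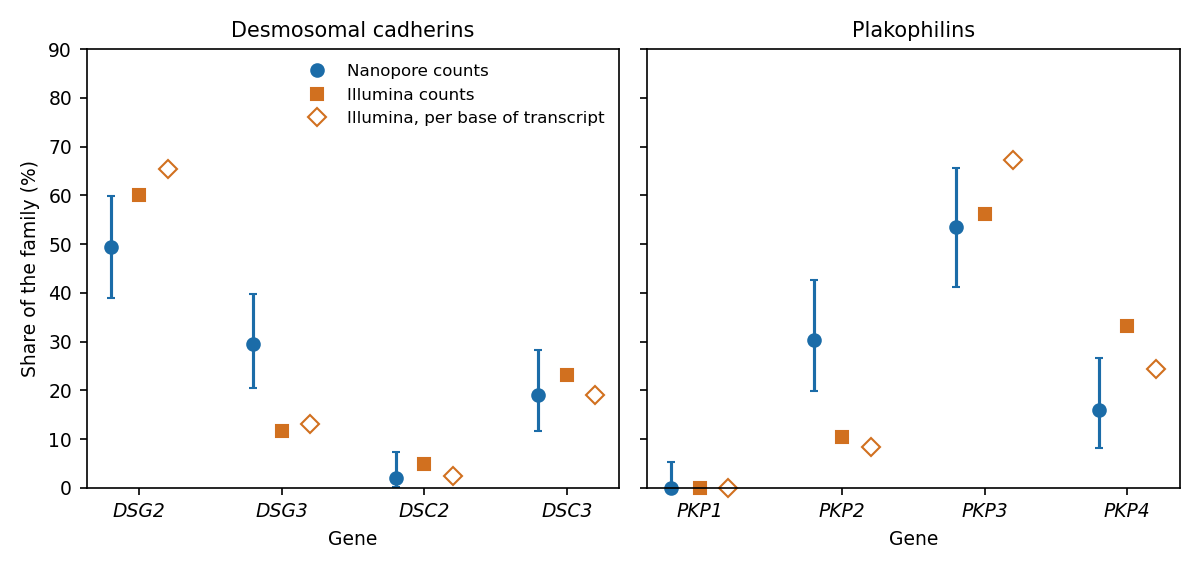
Share (%) of each gene among the desmosomal cadherins (left) and the plakophilins (right) in Nanopore counts (circles, exact 95% binomial intervals), Illumina counts (squares) and Illumina counts per base of canonical transcript (diamonds). DSG3 and PKP2 hold 29.5% and 30.4% by Nanopore, and both Illumina markers of each lie below the Nanopore interval.

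Some of these counts can include reads of other genes. DSG2-AS1 is a lncRNA gene on the opposite strand (31542146 to 31556948). Its gene body covers the 3′ end of DSG2, and it had exactly as many Nanopore counts, 47. By Illumina it had 291 counts, 0.846% of those of DSG2. The body of PKP4-AS1 (chromosome 2, 158658337 to 158735002) covers the 3′ end of PKP4. Again both had the same Nanopore count, 11, and PKP4-AS1 had 45 Illumina counts, 0.357% of those of PKP4. Opposite-strand genes that reach only the 5′ end had few: DSP-AS1 (chromosome 6, 7540447 to 7543114) had 1 Nanopore count beside 53 for DSP, and DSCAS had 0 beside 2 for DSC2.

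The same comparison was made over all protein-coding genes with at least 10 Nanopore counts, DSG2 and PKP4 included. DSG2-AS1 and PKP4-AS1 share 186 and 418 exonic bases with their partners in release 44. In the canonical transcripts, shared bases lie 3102 to 3288 bases from the 3′ end of DSG2 and 2120 to 2238 from that of PKP4. They are in the last exon of DSG2, but not in that of PKP4. In 1171 such pairs the body of an opposite-strand gene covered the 3′ end and exonic bases were shared. The Nanopore counts were identical in 231 of these (19.7%). They were within 10% in 463 pairs (39.5%), against 37 (3.16%) by Illumina. In 189 further pairs the other gene covered the 3′ end without a shared exonic base, and the Nanopore counts were identical in 53 (28.0%). Where the other gene reached only the 5′ end, they were identical in 20 of 592 pairs with shared exonic bases and in 1 of 130 without. How many Nanopore reads counted for DSG2 and PKP4 came from the antisense partner cannot be read from these counts. Why the counts of each pair were equal was not tested. The 5 genes that overlap no other gene in release 44 were PKP1, PKP3, DSG3, DSC3 and PERP. The release used for counting is not given, and the part of overlapping genes in the ratios was not tested. PKP2 overlaps a lncRNA gene on its own strand, ENSG00000274976, with 0 Nanopore and 4 Illumina counts, and a pseudogene at 0 in both.

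Sequence shared with other genes was measured in both orientations. Of the 50-base words in the canonical transcript of PKP2, 7.22% also occur in 1 other gene, ENSG00000256913, in the same orientation. The counts of ENSG00000256913 are not given here. For DSG3, 4.18% occur in the same orientation in transcripts of 260 other genes, and for DSC3 1.86% occur in 156. For the other 7 genes the share was under 1% in that orientation. In the opposite orientation it was 3.94% for DSG3, 3.49% for DSG2 (DSG2-AS1 among the matches), 1.59% for DSC3 and 1.56% for PKP4 (PKP4-AS1), and under 1% for the other 6. The pseudogenes named after these genes, PERPP1, PERPP2 and PKP4P1, had 0 Nanopore counts, and 0, 84 and 15 Illumina counts. None of the 10 genes had a copy on an alternate contig of its chromosome in hg38, taken as 80% of the transcript aligned at no more than 5% divergence. The part of shared sequence in the ratios of DSG3 and PKP2 was not tested.

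Genes that work with the desmosome were taken as a list of 21, of which 16 averaged 5 CPM or more. By the exact test 4 were higher by Nanopore (KRT5, KRT14, KRT17, KRT8), beside the 20.2% of all tested genes, and 4 were higher by Illumina (PNN, CTNND1, CDH3, TP63), beside the 27.2%. JUP (plakoglobin), the catenin that both desmosomes and adherens junctions use, had 18 Nanopore counts, 44.6 CPM, and 48.2 CPM by Illumina, with an exact binomial adjusted p = 0.945. Its Nanopore count equalled that of DSC3. TP63, the basal transcription factor upstream of PERP, had 5 Nanopore counts and 33.2 CPM by Illumina. The plakin PPL (periplakin) had 13 Nanopore counts, 32.2 CPM, against 38.9 CPM by Illumina, and the plakin EVPL (envoplakin) had 1 count against 11.6 CPM. CDH1 (E-cadherin), the classical cadherin of epithelial adherens junctions and a Snail target, had 3 Nanopore counts and 7.91 TPM by canonical length. By that measure DSG2, DSC3 and DSG3 (9.85 TPM) were above it and DSC2 (1.88 TPM) was below, and with mean transcript length DSG3 (7.5 TPM) was below CDH1 (15.3 TPM) as well.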

How the data were processed

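Whole-number counts per Ensembl gene, not normalized, were deposited by the authors for both libraries. The submitters' processing notes name hg38, minimap2 2.11-r797, HISAT2 2.1.0 and featureCounts. Annotation release, strand setting and the treatment of reads over several genes are not given in the sources used here, and the tags heading the columns are not explained. Neither is it given whether Nanopore reads were counted over whole gene bodies without regard to strand, or corrected with short reads before counting. Either would change what a Nanopore count and every ratio mean. Names, positions and lengths came from GENCODE release 44 (hg38), which held 58207 of the 58735 identifiers. Counts were divided by library totals (CPM). Ratios are log2 of CPM + 1, which understates differences of rare genes, and fold ratios with exact intervals carry no pseudocount. With 1 library per platform a quasi-likelihood fit was not possible. Every gene averaging 5 CPM or more entered 1 test across all genes, a two-sided exact binomial test conditional on the sum of its counts (scipy 1.17.1), and Benjamini-Hochberg adjustment, checked on simulated data. It compares these libraries, not the platforms, and amplified reads are not independent molecules, so intervals cover counting error only. TMM factors came from edgeR 4.0.16, and alternate contigs were searched with minimap2 2.31. All 10 genes are named, with listed partner genes and overlapping genes. Genes and lists were chosen with earlier results of these data known.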

Additional observations from a re-analysis of the deposited data

How the results depend on the processing

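The number of genes at least 2-fold higher by Nanopore, 1 of 9, was 2 under TMM scaling, median-ratio scaling and with mitochondrial genes left out of the totals, DSG3 being the gene at that edge. It was 5, 5 and 6 of 8 with Illumina TPM by union, mean and canonical length, where the share of all tested genes also rose, from 19.2% to 33.1%, 25.3% and 35.7%. The number 2-fold higher by Illumina, 2 of 9, was 1 with a pseudocount of 5 CPM or a minimum mean of 20 CPM, and 0 with each TPM and with overlapping genes left out, which leaves 4 of the genes. By the exact binomial test, 5, 5 and 6 genes were higher by Nanopore with union, mean and canonical TPM (32.4%, 24.6% and 33.7% of all tested genes), and 0, 1 (PKP3) and 0 were higher by Illumina (12.8%, 16.9% and 11.1%), which was also 0 with overlapping genes left out. The median ratio, −0.50, was −0.37 under median-ratio scaling and −0.38 with a minimum of 20 CPM or none. It turned to 1.10, 1.33 and 1.68 with union, mean and canonical TPM. With overlapping genes left out it was 0.12, over the 4 genes kept (PKP3, DSG3, DSC3, PERP). None of these 4 had been called higher by Illumina with all genes in. Their own ratios were −0.21, 1.05, −0.57 and 0.46, against −0.27, 0.97, −0.62 and 0.39 with all genes in. That median and the 0 calls thus differ through the genes kept. With union TPM the ratios of DSP, PKP3, PKP4, DSG2 and DSC3 turned to 1.80, 0.21, 0.52, 1.17 and 0.85. With mean TPM those of DSP, DSG2 and DSC3 turned to 1.25, 0.21 and 1.41, and with canonical TPM those of DSP, PKP3, PKP4, DSG2 and DSC3 to 2.09, 0.56, 0.27, 1.21 and 1.57. The shares of all tested genes given beside the TPM counts are for genes of all lengths, and genes of similar length were not compared on these scales. Why the scales differ was not tested.

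The difference of DSP was lost under TMM (exact binomial adjusted p = 0.0738), median-ratio scaling (0.117) and without mitochondrial genes (0.0588). TMM and median-ratio scaling raised every log2 ratio by about 0.088 and 0.13. The calls of PKP2, DSG3 and PERP held under each alternative run for them. Depth limits the rare genes most: DSC2 rests on 2 Nanopore counts and PKP4 on 11. No paired analysis was possible because each platform has 1 library.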

Other observations

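Keratins, which desmoplakin anchors, ranged widely. KRT5 had 680 Nanopore counts (1686 CPM, exact Poisson interval 1562 to 1818) and 1019 TPM by Illumina with canonical length, against 131 CPM and 30.2 TPM for DSP. Its basal partner KRT14 had 322 Nanopore counts and 589 TPM. KRT7 had 518 Nanopore counts and 1143 TPM, whereas KRT19 had 1 count and 0.52 TPM. KRT6A had 118 Nanopore counts and its near-identical relative KRT6B had 1, so how reads were split between these copies is uncertain.

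CDSN (corneodesmosin), a protein of the modified desmosomes of cornified skin, had 3 Nanopore counts and 536 Illumina counts, 7.44 CPM and 2.79 CPM. Its exact binomial adjusted p-value was 0.317, with Benjamini-Hochberg adjustment over all tested genes. PNN (pinin), described both at desmosomes and in splicing, had the lowest log2 ratio of the 16 partner genes tested, −2.15, from 20 Nanopore and 42890 Illumina counts, and the ratio was −0.99 with canonical TPM.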
